A study of Homo sapiens with 6 samples.

Results

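The genes described here encode the enzymes that turn pyruvate into acetyl-CoA, the enzymes of the tricarboxylic acid (TCA) cycle, and the enzymes and carriers that link the cycle to glutamine, glutamate and the cytosol. They were taken by gene symbol from a list of 35, and all 35 are among the 21776 genes of the deposited count table. Of the 35 genes, 33 passed the filter on low counts and were tested, and OGDHL and ME3 did not. RNA sequencing was performed on SCC25, an established line of human oral squamous cell carcinoma with the genotype labelled WT. The cells were kept for 12 h either under hypoxia (1% O2, 3 libraries) or under normoxia in an air incubator (3 libraries), in the same serum-supplemented DMEM/F12 medium. The libraries represent a single cell line, and the labels do not say whether they came from separate cultures, so the p-values measure the spread between these libraries, which may be technical. The labels name SCC25, whereas a legend in the study's text names SCC9 for the hypoxia transcriptome, and the files used here do not settle which line was sequenced. Depth was similar throughout, with 30186813, 36076088 and 32272716 reads counted for hypoxia and 37278703, 29637189 and 29981208 for normoxia (replicates 1, 2 and 3).

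The labelled cell type was compared with marker genes. Among the squamous epithelial markers, KRT5 was listed at 48.3 to 60.6 FPKM and TP63 at 7.16 to 11.5 FPKM across the 6 libraries, where FPKM are reads scaled by gene length and by the total of the library. Other epithelial markers lay apart between the conditions. CDH1 was listed at 98.1 to 102 FPKM under hypoxia and at 35.7 to 40.5 FPKM under normoxia, and DSG3 at 1.90 to 2.29 FPKM and at 0.688 to 0.901 FPKM. KRT6A was listed at 0.258 to 0.658 FPKM under hypoxia and at 5.14 to 8.08 FPKM under normoxia. KRT14, a keratin of basal squamous cells, was listed at 0 in 5 of the 6 libraries and reached 0.0206 FPKM in the other. Of the fibroblast markers, COL1A1 was listed at 2.70 to 3.41 FPKM under hypoxia and at 0.443 to 0.837 FPKM under normoxia, whereas COL1A2, PDGFRB and LUM did not exceed 0.335 FPKM in any library. The endothelial markers PECAM1, CDH5 and VWF did not exceed 0.257 FPKM, and of the leukocyte markers PTPRC and CD3E did not exceed 0.0204 FPKM. CD68, a lysosomal protein that is also made outside leukocytes, was listed at 16.2 to 20.0 FPKM. The part of COL1A1 and the other markers in the results was not tested.

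In the mitochondrion, the pyruvate dehydrogenase (PDH) complex converts pyruvate to acetyl-CoA, and citrate synthase joins acetyl-CoA to oxaloacetate. The TCA cycle then oxidizes citrate back to oxaloacetate and passes electrons to the respiratory chain, which uses oxygen. Glutamine can feed the cycle through glutamate and 2-oxoglutarate, pyruvate carboxylase can refill oxaloacetate, and citrate can leave the mitochondrion to supply cytosolic acetyl-CoA. Under hypoxia, hypoxia-inducible factors are known to raise PDH kinases, which phosphorylate and inhibit the PDH complex. As a check of the labels, all 15 genes of a list with a known response to hypoxia were called higher in the libraries labelled hypoxia, against 39.2% of all genes tested.

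Under hypoxia, most genes of the cycle and of the PDH complex were lower, whereas 9 genes were higher, namely IDH1, IDH2, SUCLG2, SDHC, PC, PCK2, GPT2, D2HGDH and SLC25A1. Of the 33 genes tested, 23 were lower and 9 higher at an adjusted p under 0.05 by edgeR's quasi-likelihood test, and 1, IDH3G, did not pass. This is a share of 97.0% called, against 77.8% of all 14255 genes tested. Lower genes made up 69.7% of the 33 against 38.5% of all genes, and higher genes 27.3% against 39.2%. Their log2-fold changes had a median of -0.40, against 0.023 over all genes tested. Changes beyond 1 on the log2 scale were found for 2 higher genes (19.9% of all genes tested) and 3 lower genes (10.5% of all genes tested). In the same 32 called genes the 3 hypoxia libraries did not overlap the 3 normoxia libraries in CPM (counts scaled by library size after TMM normalization), 9 of them higher and 23 lower. No overlap was found for 80.5% of all genes tested, 40.6% higher and 39.9% lower.

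Added over all 35 genes, the reads made up 0.352%, 0.335% and 0.343% of the 3 hypoxia libraries. In the 3 normoxia libraries they made up 0.436%, 0.439% and 0.423%. Every hypoxia library was thus below every normoxia library in this share, which is given as a description. Shares and CPM are relative to all reads counted, so fewer transcripts of these genes and more transcripts of others cannot be told apart, nor, in bulk RNA, can fewer cells with a transcript and less of it per cell. The share of reads on the 17 TCA cycle genes was 0.214% to 0.225% under hypoxia and 0.292% to 0.303% under normoxia. The 2 genes of the anaplerosis group, PC and PCK2, went the other way, from 0.00319% to 0.00333% under normoxia to 0.00490% to 0.00499% under hypoxia.

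The PDH complex is built from PDHA1 and PDHB, the alpha and beta subunits of pyruvate dehydrogenase, from DLAT, the acetyltransferase core, from PDHX, which binds DLD to that core, and from DLD, the dihydrolipoamide dehydrogenase. All 5 genes were called lower under hypoxia (38.5% of all genes tested), although the call of PDHB was lost in most alternatives. DLAT (Entrez gene 1737) was at 45.6, 44.8 and 48.7 CPM under hypoxia, given throughout in the order of replicates 1, 2 and 3, and at 98.5, 96.4 and 85.6 CPM under normoxia. The libraries of the conditions did not overlap, and DLAT had the largest fall of the complex, with a log2-fold change of -1.01 (standard error 0.0644, edgeR adjusted p = 1.68e-10). PDHA1, which carries the phosphorylation sites that PDH kinases act on, fell by 0.61 on the log2 scale, from 108 ± 8.05 to 70.8 ± 3.15 CPM (SD, n = 3). PDHX had a log2-fold change of -0.56 and DLD one of -0.44, each with a standard error of at most 0.0692.

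PDHB was the most abundant transcript of the 4 PDH-specific genes in FPKM and the one that changed least. Its place in FPKM depends on the gene lengths, 1507 bases for PDHB and 3505 for PDHA1. In CPM, PDHA1 was above PDHB in every library. PDHB was at 49.3, 43.7 and 46.2 CPM under hypoxia and at 49.7, 51.4 and 53.2 CPM under normoxia, so that hypoxia replicate 1 lay just below normoxia replicate 1. Its log2-fold change of -0.15 (95% interval -0.284 to -0.015, edgeR adjusted p = 0.0404) lost its call in 10 of 14 alternatives. These were the filter of at least 10 counts in every library (-0.072, edgeR adjusted p = 0.296), DESeq2 (-0.15, adjusted p = 0.0672), the replicate block (-0.15, edgeR adjusted p = 0.0596) and all 3 limma fits (-0.10 each). The others were the fits without hypoxia replicate 2 (-0.11), hypoxia replicate 3 (-0.15), normoxia replicate 2 (-0.16) or normoxia replicate 3 (-0.14).

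**Figure D1:**
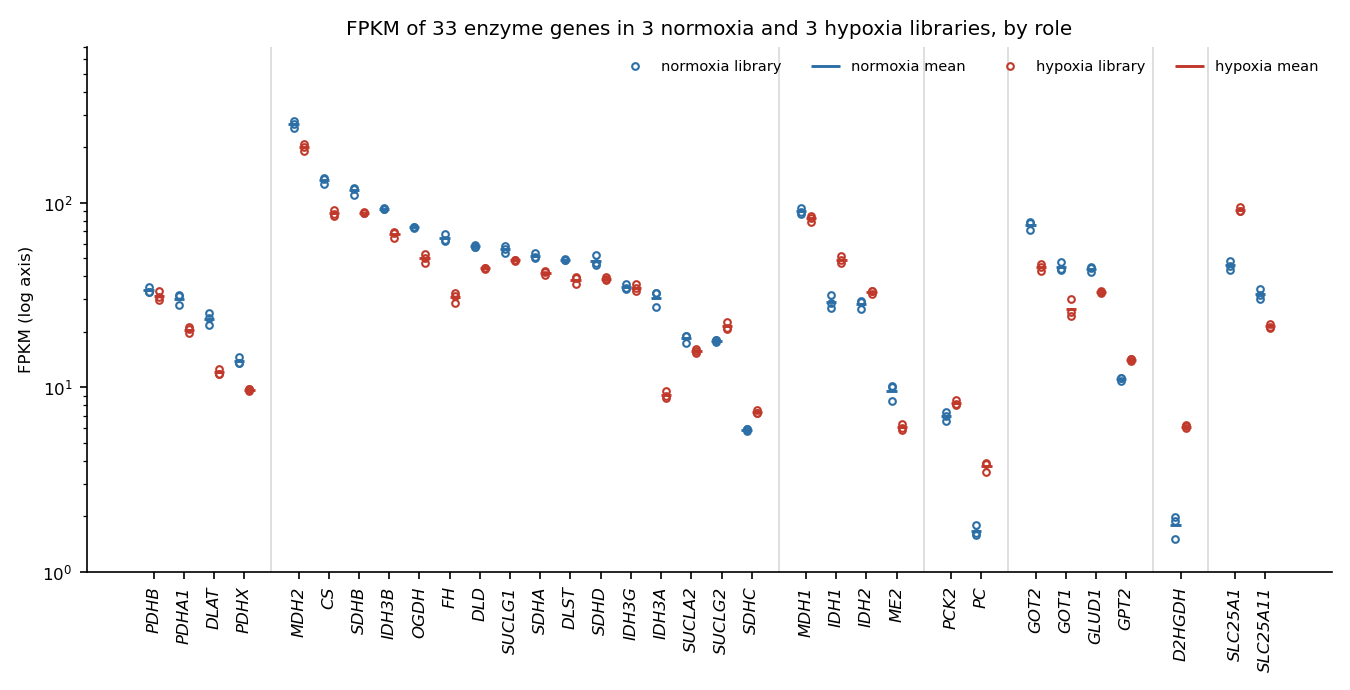
FPKM (log axis) of the 33 tested genes in each library (open circles, 3 normoxia and 3 hypoxia) with the mean of each condition (bars), grouped by role in the order PDH complex, TCA cycle, NADP-linked, cytosolic and malic enzymes, anaplerosis and exit, glutamate and aminotransferases, 2-hydroxyglutarate, and carriers. MDH2 is the most abundant in each condition, IDH3A drops from 30.6 to 9.08 FPKM, and SLC25A1 rises from 45.8 to 91.8 FPKM.

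Of the 17 TCA cycle genes, 16 were tested, of which 13 were lower, 2 were higher and 1 did not pass. This is 93.8% called and 81.2% lower, against 77.8% and 38.5% of all genes tested. The largest fall of all 33 genes belonged to IDH3A, the catalytic alpha subunit of the mitochondrial NAD-dependent isocitrate dehydrogenase. IDH3A (Entrez gene 3419) was at 40.8, 36.8 and 38.7 CPM under hypoxia and at 140, 145 and 120 CPM under normoxia. This was 3.49-fold lower under hypoxia, a log2-fold change of -1.80 (standard error 0.0714, edgeR adjusted p = 5.27e-13), and the conditions were far apart. The other subunits of the same enzyme moved less. IDH3B was 122 ± 6.63 CPM under hypoxia and 174 ± 2.89 CPM under normoxia (SD, n = 3), a log2-fold change of -0.51. IDH3G was at 53.5, 55.0 and 52.2 CPM under hypoxia and at 54.6, 59.1 and 54.3 CPM under normoxia. The libraries of IDH3G overlapped, and its log2-fold change of -0.062 (95% interval -0.188 to 0.064) did not pass (edgeR adjusted p = 0.351).

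FH encodes fumarase, which hydrates fumarate to malate. It was at 74.9, 64.5 and 71.9 CPM under hypoxia and at 146, 162 and 146 CPM under normoxia, 2.15-fold lower with no overlap (log2-fold change -1.10, standard error 0.0648, edgeR adjusted p = 6.01e-11). In FPKM, FH went from position 8 of the 35 genes under normoxia to position 19 under hypoxia. MDH2, the mitochondrial malate dehydrogenase that follows fumarase, was the most abundant of the 35 genes in FPKM in each condition. MDH2 was at 448, 405 and 435 CPM under hypoxia and at 580, 626 and 561 CPM under normoxia, and it fell by 0.46 on the log2 scale. CS, the citrate synthase that opens the cycle, went from 393 ± 20.9 to 252 ± 11.7 CPM (SD, n = 3) and fell by 0.64 on the log2 scale.

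The 2-oxoglutarate dehydrogenase complex oxidizes 2-oxoglutarate to succinyl-CoA and shares DLD with the PDH complex. OGDH, its substrate-binding dehydrogenase, fell by 0.60 on the log2 scale, and DLST, its succinyltransferase core, by 0.40. OGDHL, a paralog of OGDH, was not tested, with 8, 13 and 8 counts under hypoxia and 1, 0 and 2 counts under normoxia. The summed counts, 29 against 3, give a ratio of 9.21 after scaling (95% exact interval 2.85 to 47.2, for counting error only), at levels of at most 0.350 CPM against 369 ± 4.15 CPM for OGDH under normoxia.

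Succinyl-CoA ligase makes succinate and a nucleoside triphosphate, and its beta subunit decides the nucleotide. SUCLA2 encodes the ATP-forming beta subunit, SUCLG2 the GTP-forming one and SUCLG1 the alpha subunit that they share. SUCLA2 and SUCLG1 were lower under hypoxia, with log2-fold changes of -0.27 and -0.25, whereas SUCLG2 was higher (0.21, standard error 0.0571, edgeR adjusted p = 0.00294). SUCLG2 was at 67.4, 72.4 and 68.8 CPM under hypoxia and at 58.2, 61.8 and 60.5 CPM under normoxia, without overlap. The changes are of 1.16-fold to 1.21-fold in size.

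Succinate dehydrogenase oxidizes succinate to fumarate and is also complex II of the respiratory chain. SDHA (the flavoprotein subunit), SDHB (the iron-sulfur subunit) and SDHD (a membrane anchor) were lower, with log2-fold changes of -0.35, -0.45 and -0.37. SDHC, the other membrane anchor, was higher under hypoxia at 95.8, 95.2 and 101 CPM against 80.0, 81.1 and 80.9 CPM under normoxia. There was no overlap (log2-fold change 0.27, standard error 0.0528, edgeR adjusted p = 0.000154). The FPKM of SDHC was 5.90 under normoxia against 117 for SDHB. The FPKM of SDHC rest on a gene length of 13442 bases and those of SDHB on 1015, as recomputed from the counts, so that the levels of these subunits depend on the lengths the authors used.

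The isocitrate dehydrogenases outside the NAD-dependent enzyme were higher. IDH1 is the cytosolic and peroxisomal NADP-dependent enzyme, which can also run in reverse to make isocitrate from 2-oxoglutarate. IDH1 was at 138, 124 and 132 CPM under hypoxia and at 77.6, 75.7 and 86.7 CPM under normoxia. The groups did not overlap, and the log2-fold change was 0.71 (standard error 0.0624, edgeR adjusted p = 1.11e-08). IDH2, the mitochondrial NADP-dependent enzyme, had a log2-fold change of 0.17 (edgeR adjusted p = 0.00956). IDH2 lost its call without hypoxia replicate 3 (0.15), without normoxia replicate 2 (0.13) and without a filter on low counts (0.13).

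MDH1, the cytosolic malate dehydrogenase, had the highest FPKM of the NADP-linked, cytosolic and malic enzymes. It was at 129, 117 and 127 CPM under hypoxia and at 145, 138 and 139 CPM under normoxia, a log2-fold change of -0.18. The call of MDH1 was lost with at least 10 counts in every library (-0.10, edgeR adjusted p = 0.0965) and by limma on log2(FPKM + 1) without a filter on low FPKM (-0.13, limma adjusted p = 0.0505). ME2 encodes the mitochondrial NAD-dependent malic enzyme, which makes pyruvate from malate. ME2 was at 56.8, 52.6 and 52.7 CPM under hypoxia and at 90.7, 94.0 and 77.3 CPM under normoxia. It was 1.62-fold lower without overlap (log2-fold change -0.69, standard error 0.0702). ME3, the mitochondrial NADP-dependent form, had 0 counts in 5 of the 6 libraries and 6 counts in normoxia replicate 3, so no fold is given.

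Among the genes that rose, D2HGDH had the largest change. It encodes the mitochondrial dehydrogenase that oxidizes D-2-hydroxyglutarate to 2-oxoglutarate. D2HGDH (Entrez gene 728294) was at 33.7, 32.3 and 34.5 CPM under hypoxia and at 10.5, 8.70 and 11.2 CPM under normoxia. Every hypoxia library was well above every normoxia library, 3.31-fold in the fit (log2-fold change 1.72, standard error 0.0951, edgeR adjusted p = 2.73e-11).

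PC encodes pyruvate carboxylase, which makes oxaloacetate from pyruvate. PC was at 24.1, 21.5 and 24.6 CPM under hypoxia and at 11.4, 10.7 and 10.3 CPM under normoxia. The conditions did not overlap, and PC was 2.16-fold higher (log2-fold change 1.11, standard error 0.0946, edgeR adjusted p = 7.93e-09). In GENCODE v29, PC shares 621 bases of exon with LRFN4 on the opposite strand. LRFN4 went from 61.2 to 23.2 CPM, opposite in direction to PC, and whether the counting used the strand is not given in the sources used here. PCK2, the mitochondrial enzyme that turns oxaloacetate into phosphoenolpyruvate, was at 25.2, 26.0 and 24.9 CPM under hypoxia and at 20.6, 22.6 and 23.4 CPM under normoxia. Its log2-fold change of 0.19 (edgeR adjusted p = 0.0358) lost its call without hypoxia replicate 1 (0.19), 2 (0.17) or 3 (0.20), without normoxia replicate 1 (0.12) or 2 (0.20), with the replicate block (0.19, adjusted p = 0.0547) and without a filter on low counts (0.15).

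SLC25A1, the carrier that exports citrate from the mitochondrion, rose under hypoxia. It was at 170, 159 and 163 CPM under hypoxia and at 83.0, 80.7 and 89.2 CPM under normoxia. The groups were apart by 1.94-fold (log2-fold change 0.96, standard error 0.0561, edgeR adjusted p = 5.88e-11). In FPKM, SLC25A1 moved from position 14 of the 35 genes under normoxia to position 2 under hypoxia. SLC25A11, which exchanges 2-oxoglutarate for malate in the malate-aspartate shuttle, went the other way, from 64.6 ± 4.92 to 41.8 ± 1.60 CPM (SD, n = 3; log2-fold change -0.63).

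The mitochondrial and cytosolic aspartate aminotransferases of the same shuttle fell together. GOT2, the mitochondrial form, was at 112, 101 and 108 CPM under hypoxia and at 189, 198 and 175 CPM under normoxia. GOT1, the cytosolic form, was at 59.1, 46.7 and 50.1 CPM under hypoxia and at 86.4, 97.8 and 86.9 CPM under normoxia. Neither gene overlapped between the conditions, and the log2-fold changes were -0.81 (standard error 0.0599) for GOT2 and -0.80 (standard error 0.0777) for GOT1. GLUD1, the mitochondrial glutamate dehydrogenase, had a log2-fold change of -0.46. GLUD2, a near-identical intronless copy of GLUD1 that could share its reads, had 0.521 CPM under normoxia against 172 for GLUD1. GPT2, the mitochondrial alanine aminotransferase, was higher, at 63.5, 60.4 and 63.7 CPM under hypoxia against 51.0, 52.9 and 49.3 CPM under normoxia. The libraries of GPT2 did not overlap (log2-fold change 0.29, standard error 0.0582, edgeR adjusted p = 0.000208).

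The balance between genes within enzymes and between isoenzymes was described by ratios. The ratio of FPKM was taken in each library for 10 pairs of genes, since ME3/ME2 and OGDHL/OGDH had libraries at 0. In 8 of the 10 pairs the conditions did not overlap (two-sided exact permutation test, p = 0.1 each, the smallest that 3 libraries against 3 allow, and 0.125 after adjustment over the 10 pairs). No pair could pass a threshold of 0.05, and the number without overlap lies near the 80.5% of all single genes tested that did not overlap in CPM. The ratio of IDH3A to IDH2 was 0.298, 0.263 and 0.272 under hypoxia and 1.12, 1.22 and 0.933 under normoxia, a difference of -1.97 on the log2 scale. The ratio of PC to PDHA1, the genes of pyruvate carboxylation and of pyruvate oxidation, was 0.181, 0.176 and 0.188 under hypoxia and 0.0567, 0.0518 and 0.0573 under normoxia, 3.29-fold higher. These were the widest differences of the 10 pairs, and IDH3A stands in its ratio for 1 subunit, not for the whole NAD-dependent enzyme.

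The ratio of SUCLA2 to SUCLG2 went from 1.08, 0.959 and 1.05 under normoxia to 0.746, 0.715 and 0.752 under hypoxia. Where the ratio stands against 1 depends on the gene lengths behind the FPKM, 2111 bases for SUCLA2 and 3305 for SUCLG2, and in CPM SUCLG2 was above SUCLA2 in all 6 libraries. IDH1 to IDH2 went from 0.991, 1.02 and 1.08 to 1.62, 1.42 and 1.48. The other pairs without overlap were MDH1/MDH2, PDHA1/PDHB, DLAT/PDHX and PCK2/PC, with log2 differences between -0.92 and 0.28. GOT1/GOT2 overlapped, with a log2 ratio of -0.755 ± 0.104 under hypoxia and -0.760 ± 0.0665 under normoxia (SD, n = 3; two-sided exact permutation test, p = 1). SDHA/SDHB also overlapped (log2 difference 0.094, two-sided exact permutation test, p = 0.3).

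**Figure D2:**
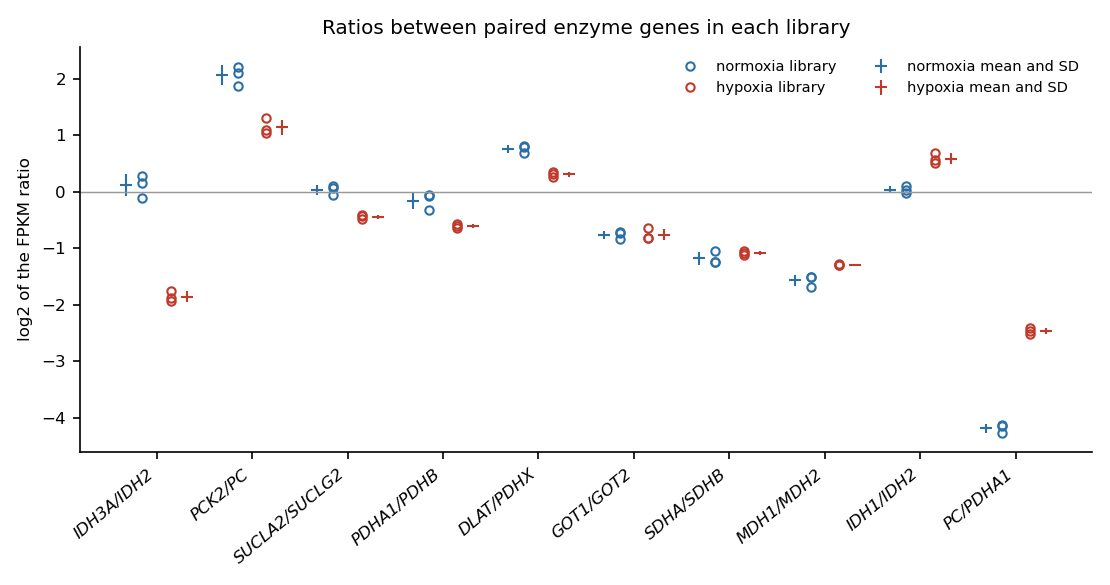
The log2 of the FPKM ratio between paired genes (y axis) in each library (open circles) with the mean and SD of each condition (crosses, n = 3). The mean of IDH3A/IDH2 differs by -1.97 and that of PC/PDHA1 by 1.72 (hypoxia minus normoxia), and GOT1/GOT2 and SDHA/SDHB overlap.

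Stretches upstream of the start of 4 genes are shown because these genes had the largest changes in each direction. They are the 250 bases before the RefSeq start (GRCh38.p14), 5′ to 3′ on the strand of the gene, with capitals marking the letters ACGTG or GCGTG on either strand, the core to which hypoxia-inducible factors bind. IDH3A lies on the plus strand at chr15:78149112-78149361, FH on the minus strand at chr1:241519756-241520005, D2HGDH on the plus strand at chr2:241734380-241734629 and PC on the minus strand at chr11:66958384-66958633.
IDH3A: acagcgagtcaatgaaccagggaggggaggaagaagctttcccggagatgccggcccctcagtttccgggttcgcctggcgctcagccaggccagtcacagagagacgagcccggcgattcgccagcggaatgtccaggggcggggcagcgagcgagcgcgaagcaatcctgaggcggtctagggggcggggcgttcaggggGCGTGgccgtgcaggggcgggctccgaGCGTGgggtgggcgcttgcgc
FH: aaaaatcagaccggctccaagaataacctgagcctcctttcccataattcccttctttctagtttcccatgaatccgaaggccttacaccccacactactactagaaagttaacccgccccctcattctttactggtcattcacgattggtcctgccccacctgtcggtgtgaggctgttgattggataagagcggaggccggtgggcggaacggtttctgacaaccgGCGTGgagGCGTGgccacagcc
D2HGDH: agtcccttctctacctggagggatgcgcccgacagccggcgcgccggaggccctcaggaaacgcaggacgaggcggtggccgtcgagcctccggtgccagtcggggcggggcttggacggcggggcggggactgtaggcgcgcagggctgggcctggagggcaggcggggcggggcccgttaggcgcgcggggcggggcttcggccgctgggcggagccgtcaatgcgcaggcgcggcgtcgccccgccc
PC: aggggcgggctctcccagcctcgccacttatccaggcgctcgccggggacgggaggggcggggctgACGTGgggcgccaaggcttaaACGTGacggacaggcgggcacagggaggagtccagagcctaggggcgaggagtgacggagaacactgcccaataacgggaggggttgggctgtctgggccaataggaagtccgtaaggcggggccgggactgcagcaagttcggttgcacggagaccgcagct

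IDH3A and FH, which fell, each hold 2 matches of GCGTG, and PC, which rose, holds 2 of ACGTG, whereas D2HGDH, which rose most, holds 0 in this window. Of the 35 genes, 32 have a window in the table, and 22 of these (68.8%) hold at least 1 match, against 43.1% of all 27305 windows of the same length. The share was 4 of 7 among the genes called higher and 15 of 22 among those called lower. Matches may share letters with each other, and CACGTG, which holds ACGTG on each strand, was counted on both. A match is a description of the letters and does not show a site in use. The 27305 windows include genes not tested here and were not matched for base composition. The difference in share from them is therefore not read as an enrichment.

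The regulators and neighbours of these enzymes were described from lists of 47 further genes, of which 44 are in the table and 41 were tested. Of the 41, 11 were higher, 25 lower and 5 did not pass (edgeR's quasi-likelihood test), with a median log2-fold change of -0.44. This is 87.8% called, 26.8% higher and 61.0% lower, against 77.8%, 39.2% and 38.5% of all genes tested. Of the 11 higher genes, GPT, SLC38A5 and ADHFE1 passed the filter on low counts only through the hypoxia libraries, which fixed their direction, so their calls carry no weight. The same holds for the ratios and intervals given for them below. None of the 33 enzyme genes passed through 1 condition only. The tested genes of the PDH kinases and of the PDH phosphatase went in opposite directions. The kinases PDK1, PDK2 and PDK3, which inhibit the PDH complex, were higher, and PDP1, PDP2 and PDPR, the catalytic and regulatory subunits of the phosphatase that reactivates it, were lower. PDK1 was at 120, 142 and 134 CPM under hypoxia and at 37.4, 34.8 and 42.2 CPM under normoxia (log2-fold change 1.80, standard error 0.0749). PDK3 had a log2-fold change of 1.66 and PDK2 one of 1.09, and the phosphatase genes lay between -0.51 and -0.32.

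Of 13 genes of glutamine uptake and use, 9 were lower, 3 were higher and 1 did not pass, which is 92.3% called, 69.2% lower and 23.1% higher against 77.8%, 38.5% and 39.2% of all genes tested. The 3 higher genes include SLC38A5, whose direction the filter fixed. CTPS1, the CTP synthase, which takes nitrogen from glutamine, was at 31.4, 25.2 and 30.3 CPM under hypoxia and at 145, 154 and 133 CPM under normoxia. It had the largest fall of the 41 genes (log2-fold change -2.32, standard error 0.0781), and CAD, which starts pyrimidine synthesis from glutamine, followed with -1.66. SLC38A5, a glutamine transporter, had 10, 15 and 25 counts under hypoxia and 3 in each normoxia library, a ratio of 5.29 (95% exact interval 2.58 to 12.2, for counting error only). At much higher levels, SLC1A5, the main glutamine importer of many tumours, went from 240 ± 23.7 to 102 ± 6.97 CPM (SD, n = 3). It was named after its values were seen, as was GLUL, the glutamine synthetase, which was higher (log2-fold change 0.71).

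Among the other citrate, malate and cytosolic enzymes, 2 genes were higher, 4 lower and 1, GLUD2, did not pass. This is 85.7% called, 57.1% lower and 28.6% higher, against 77.8%, 38.5% and 39.2% of all genes tested, and the 2 higher genes include GPT, whose direction the filter fixed. GPT, the cytosolic alanine aminotransferase, had 25, 13 and 23 counts in the hypoxia libraries and 4, 3 and 3 in the normoxia libraries, a ratio of 5.81 (95% exact interval 2.95 to 12.7, for counting error only). ME1, the cytosolic malic enzyme, had a log2-fold change of -0.65. ACLY, which splits exported citrate into acetyl-CoA and oxaloacetate and was named after its values were seen, was higher at 663, 585 and 608 CPM under hypoxia against 493, 497 and 493 CPM under normoxia (log2-fold change 0.32).

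The mitochondrial carriers SLC25A10, SLC25A12, SLC25A13 and SLC25A22, which move dicarboxylates, aspartate and glutamate, were all 4 lower (38.5% of all genes tested), with log2-fold changes between -1.08 and -0.68. SLC25A10 had the largest fall, SLC25A13 followed with -1.05 and SLC25A22 with -0.75, and SLC25A18 and SLC25A21 were too low to test. Of the factors that assemble succinate dehydrogenase, SDHAF2 (-0.75) and SDHAF3 (-0.72) were lower and SDHAF4 (0.69) was higher on the log2 scale, and SDHAF1 was also called higher (0.35). The libraries of SDHAF1 overlapped, and its call was lost without hypoxia replicate 1 (0.32), 2 (0.39) or 3 (0.32), without normoxia replicate 2 (0.26) or 3 (0.24) without a filter on low counts and by limma without a filter on low FPKM. In pyruvate import and lipoylation, LIPT1 (-0.80) and MPC1 (-0.46) were lower and MPC2, LIAS and LIPT2 did not pass. The libraries of MPC1 overlapped between the conditions, and its call was lost by limma without a filter on low FPKM (-0.30). ADHFE1 is a mitochondrial transhydrogenase that can form D-2-hydroxyglutarate. It had 13, 7 and 17 counts under normoxia and 56, 92 and 69 counts under hypoxia. The ratio was 5.59 (95% exact interval 3.93 to 8.15, for counting error only). The filter fixed the direction of ADHFE1, so this ratio and its interval carry no weight.

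**Figure D3:**
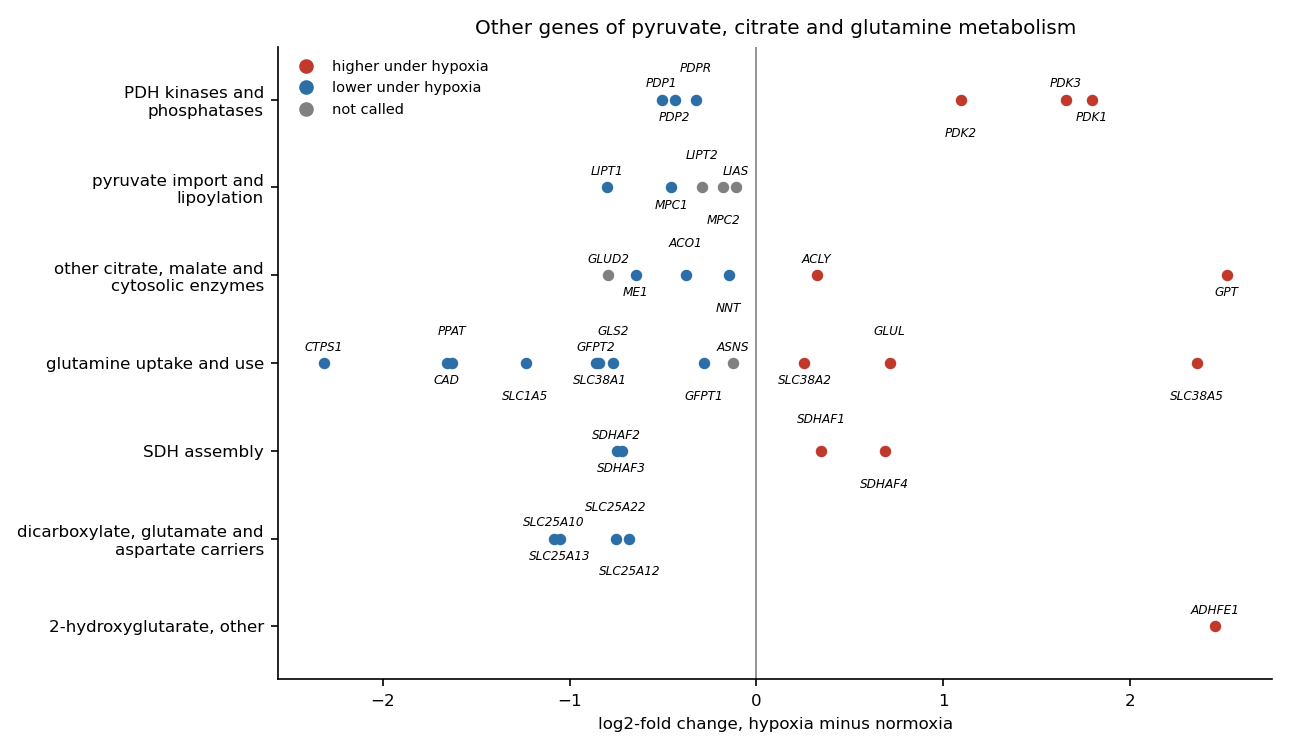
The log2-fold change (hypoxia minus normoxia, x axis) of 38 of the 41 tested genes of the related lists, 1 point per gene, coloured by the call of edgeR's quasi-likelihood test. The PDH kinases lie to the right of 0 between 1.09 and 1.80, their phosphatases and the carriers to the left, and CTPS1 lies farthest left at -2.32.

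The respiratory chain, which takes the electrons released by the cycle, gives a comparison. Of 75 nuclear-encoded subunits tested, 43 were lower, 6 higher and 26 did not pass, with a median log2-fold change of -0.18. The share called, 65.3%, lies below the 77.8% of all genes tested, with 57.3% lower against 38.5% and 8.0% higher against 39.2%. The difference between that list and the enzymes described here was not tested. The deposited table also carries KEGG pathways, and there the citrate cycle, which was consulted after the values were seen, holds 30 genes, 26 of them among the 35. Of its 28 tested genes, 20 were lower, 7 higher and 1 did not pass (median log2-fold change -0.37). Pyruvate metabolism had 17 lower, 11 higher and 5 not called of 33 tested (median -0.15). Alanine, aspartate and glutamate metabolism had 13 lower, 12 higher and 4 not called of 29 tested (median -0.13), and its higher genes include GPT, whose call carries no weight. Of all 14255 genes tested, 1475 passed the filter on low counts through 1 condition only. Pathway genes outside the lists described here were not checked for this. Over all genes tested, 77.8% were called, 38.5% lower and 39.2% higher, and differences between these pathways were not tested.

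Genes that overlap on the genome could share reads where counting ignores the strand. By GENCODE v29, 14 of the 35 genes share exon bases with another gene of the count table, on the opposite strand in each case. For IDH3A, the partner ACSBG1 (2608 shared bases) was at 0.0546 CPM under hypoxia and 0.0870 CPM under normoxia. CIB2, which shares 47 bases with IDH3A, was at 22.9 CPM under hypoxia and 12.0 CPM under normoxia, against 38.8 and 135 CPM for IDH3A. For GLUD1, SHLD2 shares 464 bases and went from 34.0 to 12.9 CPM, in the same direction as the enzyme gene. D2HGDH shares bases only with AC114730.1 and AC114730.2, which are not in the count table. SLC25A1, FH and GOT1 share none with a gene of the count table. The part of shared reads in these results was not tested.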

How the data were processed

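The authors deposited counts, the whole number of reads per gene without normalization, and FPKM, which the authors scaled by gene length and by the total count of each library. Libraries were made from total RNA with a SMARTER mRNA-Seq kit. The aligner, annotation, counting tool and strand setting are not given in the sources used here. The submitters' processing notes list GRCm38 and mm10, mouse builds, although the symbols and Entrez numbers are human, so no gene coordinates from the files are given. The other deposited columns hold gene annotation.

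Counts of 14255 genes passing filterByExpr entered the quasi-likelihood test of edgeR 4.0.16 under R 4.3.3 (TMM, glmQLFit and glmQLFTest, condition as the only term, Benjamini-Hochberg adjustment, called at 0.05). The standard error is the size of the log2-fold change divided by the square root of F. Alternatives used DESeq2 1.42.0, limma 3.58.1 on log2(FPKM + 1), other filters, and each library left out. The fits were tested first on a single simulated draw in which few genes were changed. The share of false calls there was above the nominal level by edgeR, which made the calls given here, by DESeq2 and by limma. The excess was smaller by limma, which ran there on counts scaled by library size and not on FPKM. The fits were thus not compared on like terms. Most genes were called in the real data, so the simulated share does not measure the false share of the calls given here. Exact tests used SciPy 1.17.1. Replicates of a condition differed beyond counting noise, with a chi-square of 4.90 to 10.8 per gene for a pair.

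The members, lists and tests were chosen with earlier results of these data known. Values in every library are given for the 6 members with the largest called change in each direction, for the member with the highest FPKM of each role group and for members not called, and the 3 called genes with the largest change are named of each related list, except that a few genes are not reported here. Totals of 29637189 to 37278703 counts leave OGDHL and ME3 near the limit of counting.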

Additional observations from a re-analysis of the deposited data

How the results depend on the processing

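The counts of 23 lower and 9 higher genes stayed between 21 and 23 and between 7 and 10 over changes of normalization, test, filter and unit and when any single library was left out, and the cause of the small shifts was not tested. Requiring a change beyond 1 on the log2 scale kept 3 lower and 2 higher. The median of the log2-fold changes, -0.40, became -0.33 when each library needed at least 10 counts, -0.35 and -0.36 by limma on log2(FPKM + 1) and log2(FPKM + 0.1), and -0.32 by limma without a filter on low FPKM, and it lay between -0.44 and -0.36 with one library left out. The filter of at least 10 counts raised the log2-fold changes by a median of 0.077 over genes tested in both fits, and limma on log2(FPKM + 1) by 0.050. IDH3G reversed to 0.016 (edgeR adjusted p = 0.809) with that filter. GOT1/GOT2 reversed from 0.0060 to -0.055 without hypoxia replicate 1 and to -0.033 without normoxia replicate 1, and lay between -0.055 and 0.037 with one library left out. Apart from that requirement, IDH2, MDH1, PCK2 and PDHB were the enzyme genes that lost a call under an alternative, and SDHAF1, NNT and MPC1 those of the related lists. Same-numbered libraries did not deviate together (correlations of 0.0175, -0.069 and 0.00122 for numbers 1 to 3). Differently numbered ones lay between -0.0691 and 0.0663. These values show no pairing by number, but with 3 libraries per condition they cannot exclude one. With the replicate block, 8 genes were higher and 22 lower. Changes as small as those of PDHB, PCK2, IDH2 and MDH1 (at most 0.19 in log2-fold size) did not hold their calls under every alternative with 3 libraries per condition. The counts of related genes stayed between 8 and 11 higher and between 23 and 26 lower.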
